A study of Homo sapiens with 9 samples.

Results

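Cells take up and exchange amino acids through carriers of several solute carrier families, and the families SLC1, SLC3, SLC6, SLC7, SLC36, SLC38 and SLC43 hold most of them. The genes described here are all gene names of these families that the array's annotation gives to a non-control probe. They were found by name alone, without any measured value. There were 63 of them, on 91 probes, among 38764 gene names on the array. Of the 63, 59 were transporter genes and 4 were other entries whose names begin in the same way: the pseudogenes SLC6A10P and SLC7A5P1, the antisense RNA SLC7A11-AS1 and SLC7A6OS, a gene on the opposite strand at the SLC7A6 locus.

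RNA was taken from HEK293 cells, a human embryonic kidney line, that stably expressed HA-tagged MEK1, the kinase that phosphorylates ERK. The MEK1 was wild type (WT), F53S, a substitution found in the developmental disorders called RASopathies, or K57N, a substitution found in cancers. All 3 lines had been made with the same kind of puromycin-selected vector and were grown in the same serum-containing, glutamine-supplemented medium with no added stimulus. Each genotype was 1 stable line with 3 arrays, from experiments described as independent, so a difference between lines cannot be told apart from the mutation, and p-values measure the spread between these arrays. Replicate 1 of every line was on slide 1 (3 arrays) and replicates 2 and 3 were on slide 2 (6 arrays), per the slide codes in the scanner headers.

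Signals are given on the log2 scale with the 75th percentile of each array set to 0, so that 1 unit is a 2-fold difference. That percentile was a processed signal of 245 to 376 on slide 1, where K57N replicate 1 was the brightest array, and of 695 to 821 on slide 2. On slide 1, 23711 to 26110 of 50598 probes were well above background, against 27114 to 29319 on slide 2. The labels were checked with DUSP6, and MAP2K1 was read beside it. DUSP6, an ERK phosphatase gene that ERK signalling induces, stood at -3.33, -1.70 and -2.01 in WT replicates 1 to 3, at 0.51, 0.49 and 0.65 in F53S and at 4.06, 4.01 and 3.86 in K57N, with no overlap between any pair of lines. MAP2K1, the gene of MEK1 itself, stood between 2.34 and 2.42 in WT, between 2.39 and 2.5 in F53S and between 2.81 and 2.92 in K57N. All 3 lines expressed an added MEK1, and WT and F53S overlapped, so MAP2K1 does not tell those labels apart. K57N exceeded WT by 0.56, 0.47 and 0.40 for replicates 1 to 3, and the part of this in other differences was not tested. Of 10 HEK293 markers, 7 were well above background on all 9 arrays, KRT18 the brightest.

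Many of these carriers work as exchangers or are driven by the sodium or proton gradient, so what a cell takes up depends on several of them together. The heavy chain encoded by SLC3A2 pairs with light chains of the SLC7 family, among them the leucine carrier SLC7A5 and the cystine-glutamate exchanger SLC7A11, while SLC1A5 and members of the SLC38 family bring in glutamine and other small neutral amino acids. When amino acids run short, the kinase GCN2 and the transcription factor ATF4 are known to raise the transcription of several carriers, of aminoacyl-tRNA synthetases and of genes such as CHAC1, DDIT3 and TRIB3. Amino acids inside the cell and in the lysosome are sensed by the mTORC1 pathway, where SLC38A9 acts as a lysosomal arginine sensor.

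Of the 63 gene names, 37 were tested, because the probe with the highest mean signal passed the scanner's background test on every array of some line: 34 transporter genes and the entries SLC6A10P, SLC7A5P1 and SLC7A6OS. By family these were 5 of 7 SLC1 genes, 1 of 2 SLC3 genes, 12 of 20 SLC6 entries, 8 of 16 SLC7 entries, 2 of 4 SLC36 genes, 7 of 11 SLC38 genes and 2 of 3 SLC43 genes. On all 9 arrays, 33 of the 37 were well above background, and SLC38A5, SLC6A5, SLC6A17 and SLC7A6 were so on 7 or 8. Another 16 gene names were above background on no array. They were SLC7A11-AS1 and 15 transporter genes, among them SLC1A6, SLC36A2, SLC36A3, SLC38A4, SLC38A8, SLC38A11, SLC43A3, SLC6A4, SLC6A7, SLC6A12, SLC6A14, SLC6A19, SLC6A20 and SLC7A9. Several of these have known roles elsewhere, as SLC6A4 in serotonin uptake by neurons, and SLC6A19 and SLC7A9 in reabsorption by the kidney tubule.

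The remaining 10 gene names were above background on 1 to 5 arrays and were not tested over all 9 arrays. They were SLC1A2, SLC38A3, SLC3A1, SLC6A11, SLC7A3, SLC7A4, SLC7A7, SLC7A10, SLC7A13 and SLC7A14. SLC7A7 encodes a light chain that exports cationic amino acids. Its signal was -3.70, -3.58 and -3.61 in WT, -4.34, -3.02 and -4.09 in F53S, and -6.53, -4.96 and -4.83 in K57N. All 3 K57N arrays were thus below the other 6, with 1 of the 3 above background. SLC7A7 and 4 others of the 10, SLC38A3, SLC3A1, SLC6A11 and SLC7A14, were tested on slide 2 alone, by limma, and did not pass for K57N against WT. With SLC7A7 not above background on K57N replicates 1 and 2, the size of its difference was not measured.

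The comparison of K57N with WT asks which genes a cancer-type MEK1 changes. The 37 tested gene names ran from SLC6A9 at -1.0 to SLC1A1 at 1.22 on the log2 scale, with a median difference of 0.13 beside -0.06 over all 19267 genes tested. By limma with 1 mean per line, at an adjusted p below 0.05 and over 2-fold, 0 of 37 were called higher, beside 1.51% of all genes, and 0 were called lower, beside 0.742%. At an unadjusted p below 0.05 there were 2 higher, SLC1A1 and SLC7A5, and 2 lower, SLC38A10 and SLC7A8, where 1185 of the 19267 genes were higher and 1353 lower at that p. The methods' t-test called 0 after adjustment, with SLC1A1 and SLC38A6 higher at an unadjusted p below 0.05. At that p 1292 of the 19267 genes were higher and 1332 lower by the t-test. All 3 K57N arrays lay above all 3 WT arrays for 8 gene names, SLC1A1, SLC1A5, SLC38A1, SLC38A2, SLC38A6, SLC7A1, SLC7A11 and SLC7A5, a share to be read against 10.3% of all genes. They lay below for 4, SLC36A1, SLC38A10, SLC38A7 and SLC7A8, beside 12.6%.

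Many members also differed between the slides within a line, and slide was used as a term in a further limma fit. With it, SLC1A1 was called higher at over 2-fold (2.56% of all genes were) and SLC6A9 lower (1.97%). Without the 2-fold limit, 6 gene names were higher at an adjusted p below 0.05, SLC1A1, SLC1A5, SLC43A1, SLC43A2, SLC6A6 and the pseudogene SLC6A10P, beside 8.55% of all genes, and 2 were lower, SLC6A9 and SLC7A8, beside 10.8%. Over the 6 arrays of slide 2 alone, where 42 gene names were tested, limma found SLC1A1, SLC43A1, SLC6A17 and SLC7A6 higher (8.98% of all genes) and SLC38A10 and SLC6A9 lower (9.98%). Whether these shares differ from those of all genes was not tested.

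**Figure D1:**
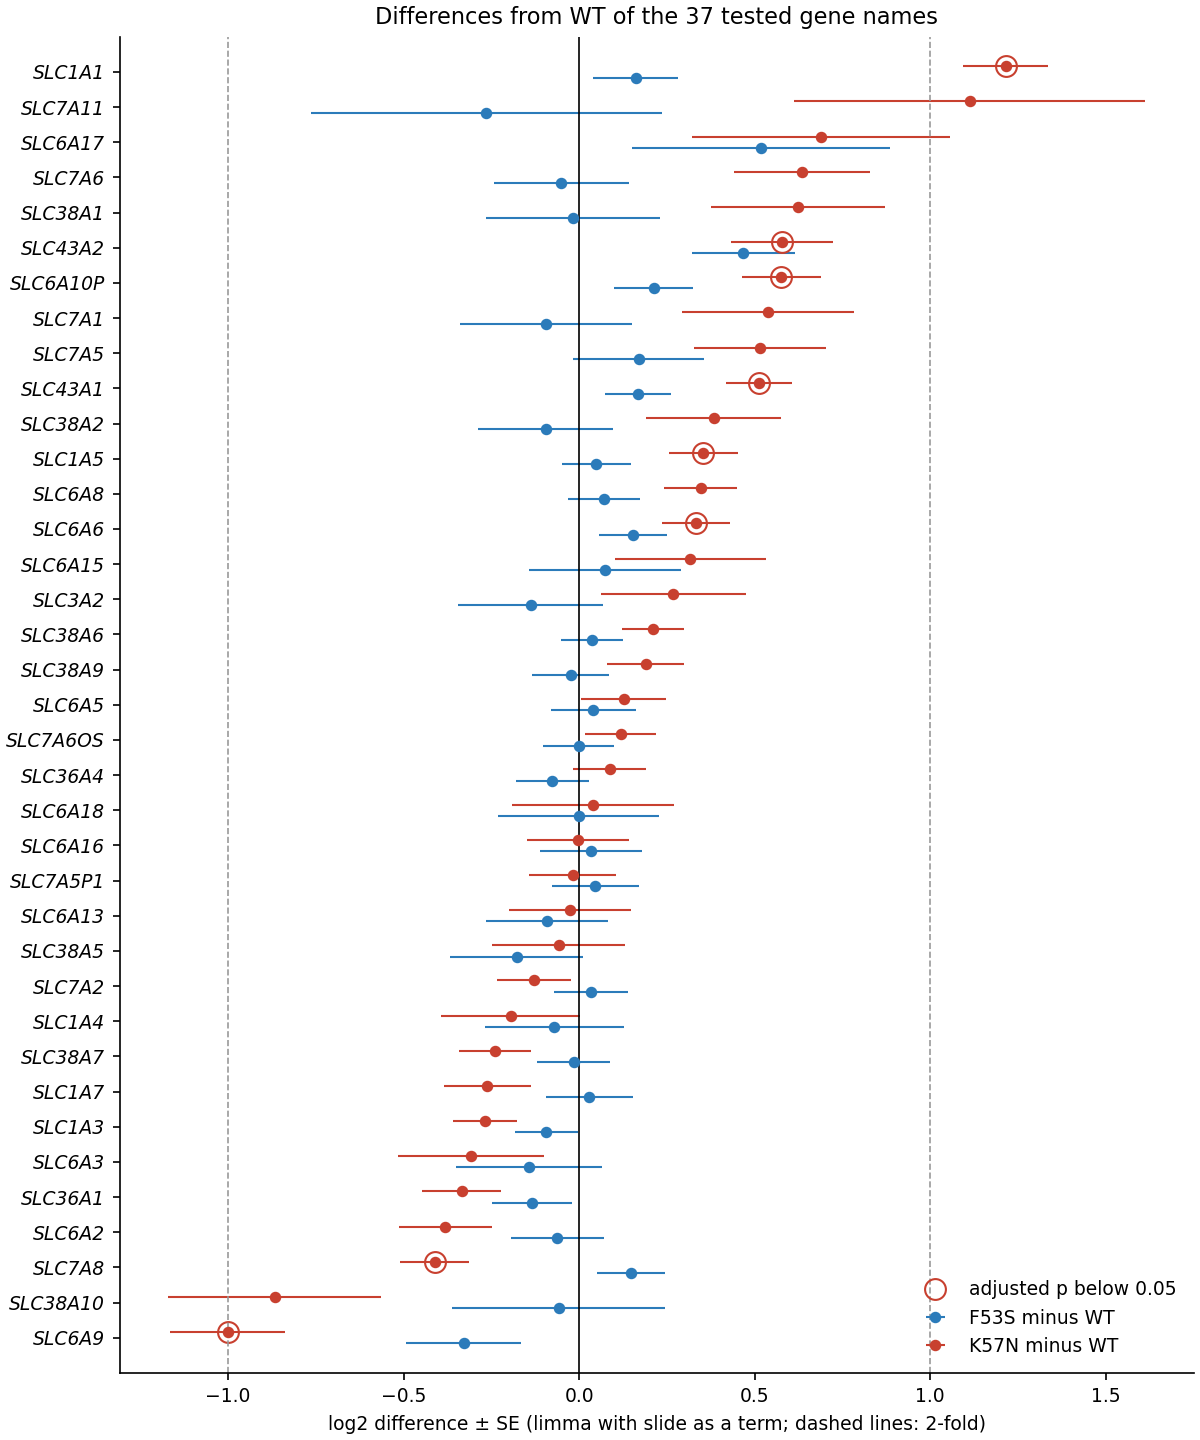
Log2 difference from WT of each of the 37 tested gene names, ordered by the K57N difference, with the standard error from limma with slide as a term. Rings mark the 8 differences of K57N from WT with an adjusted p below 0.05, from SLC1A1 at 1.22 to SLC6A9 at -1.0, and 0 differences of F53S from WT are ringed.

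SLC1A1 carries glutamate, aspartate and cysteine into cells with sodium. Its probe (chr9:4587002-4587061, plus strand, hg19) read -0.55, 0.24 and 0.16 in WT replicates 1 to 3, -0.26, 0.30 and 0.28 in F53S, and 1.01, 1.19 and 1.29 in K57N. The 3 K57N arrays were the highest of the 9, on both slides, while WT and F53S overlapped. The difference was 1.22 ± 0.26 (SE), a 2.32-fold higher mean, with an adjusted p of 0.0517 by limma with no slide term. It was 1.22 ± 0.12 with an adjusted p of 0.000704 with slide as a term, and 0.00257 with replicate number as a block. Within slide 2 it was 1.04 (adjusted p = 0.00388 by limma), and the single pair of arrays on slide 1 differed by 1.57. Over 21 alternatives the difference ran from 0.96 to 1.36 and its adjusted p from 0.000704 to 0.235, below 0.05 in 6, and leaving out F53S replicate 1 gave 0.0382.

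Of the other glutamate carriers of the family, SLC1A3 and SLC1A7 did not pass a test, and SLC1A2 and SLC1A6 were not tested. SLC1A3, known from astrocytes, read 0.17, 1.35 and 1.27 in WT, 0.04, 1.13 and 1.34 in F53S, and -0.07, 1.0 and 1.06 in K57N. Here replicate 1 was the low array of every line, and the slide separated the arrays more than the genotype did. Within each slide every K57N array was below every WT array. With slide as a term the difference was -0.27 ± 0.09 (SE, adjusted p = 0.0785 by limma). SLC1A7, a glutamate carrier known from the retina, differed by -0.26 between K57N and WT, and SLC1A4, a carrier of alanine, serine and cysteine, by -0.20, with overlapping groups for both.

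SLC1A5 exchanges glutamine for other neutral amino acids. Its probe (chr19:47278899-47278958, minus strand, hg19) read 1.96, 1.87 and 1.87 in WT, 2.14, 1.79 and 1.92 in F53S, and 2.53, 2.08 and 2.15 in K57N. K57N stood above WT on every array, F53S overlapped both, and K57N replicate 1 was the highest. The difference from WT was 0.35 ± 0.18 (SE), 1.28-fold, with an adjusted p of 0.479 by limma, and of 0.0440 with slide as a term, the only 1 of 21 alternatives below 0.05. With replicate number as a block the adjusted p was 0.0738, and the range over the alternatives was 0.0440 to 1.0.

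SLC38A1 and SLC38A2 are sodium-driven carriers of glutamine and other small neutral amino acids, and SLC38A2 is known to be induced when amino acids are withdrawn. SLC38A2 read 2.75, 3.32 and 3.33 in WT, 2.59, 3.21 and 3.32 in F53S, and 3.70, 3.44 and 3.41 in K57N. SLC38A1 read 2.06, 3.05 and 3.21 in WT, 2.0, 3.05 and 3.22 in F53S, and 3.44, 3.41 and 3.35 in K57N. For both genes the WT and F53S arrays of slide 1 were the lowest, K57N replicate 1 was the highest array of all, and the K57N and WT groups did not overlap. On slide 1 K57N exceeded WT by 0.95 for SLC38A2 and by 1.38 for SLC38A1, whereas on slide 2 the differences were 0.10 (adjusted p = 0.335 by limma) and 0.25 (0.150). Over all arrays they were 0.38 ± 0.25 (SE, adjusted p = 0.645) and 0.62 ± 0.39 (0.616).

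Other members of the SLC38 family act at the lysosome or have less settled roles. SLC38A9, the lysosomal arginine sensor, read 1.61, 1.98 and 2.05 in WT, 1.44, 2.03 and 2.10 in F53S, and 1.96, 2.11 and 2.14 in K57N, with overlap between lines and a difference of 0.19 ± 0.22 (SE, adjusted p = 0.887 by limma). With 1 array left out that difference ran from 0.058 to 0.27. SLC38A7, which exports glutamine from lysosomes, read 1.23, 0.79 and 0.75 in WT, 1.21, 0.76 and 0.75 in F53S, and 0.75, 0.62 and 0.68 in K57N. The 3 K57N arrays were the lowest, replicate 1 close to the lowest arrays of the other lines, and the difference of -0.24 did not pass (adjusted p = 0.774). SLC38A10 (chr17:79218836-79218895, minus strand, hg19) read 3.66, 2.93 and 2.89 in WT, 3.5, 2.95 and 2.85 in F53S, and 1.76, 2.55 and 2.57 in K57N. K57N was lowest on each slide without overlap, and its replicate 1 was the lowest array although the other 2 arrays of slide 1 were the highest. The difference was -0.87 ± 0.32 (SE, adjusted p = 0.263 by limma), and -0.35 within slide 2 (0.0322), against -1.90 between the 2 arrays of slide 1. SLC38A6 differed by 0.21, above WT on every array, and SLC38A5 by -0.06.

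SLC3A2 encodes the heavy chain that carries several SLC7 light chains to the plasma membrane. Its probe (chr11:62652689-62652748, plus strand, hg19) read 2.59, 2.40 and 2.36 in WT, 2.52, 2.12 and 2.30 in F53S, and 3.53, 2.36 and 2.27 in K57N. Only K57N replicate 1 stood apart, and the other 2 K57N arrays were at or below the lower end of WT. The difference of 0.27 ± 0.32 (SE, adjusted p = 0.899 by limma) turned to -0.14 without K57N replicate 1 (0.795), to -0.049 (0.723) when slide was also a term, and to -0.066 within slide 2 (0.628). The adjusted p ran from 0.401 to 1.0 over the alternatives.

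Of the light chains, SLC7A11 exchanges glutamate for cystine and so feeds glutathione synthesis. Its probe (chr4:139085433-139085492, minus strand, hg19) read -1.5, -0.45 and -0.36 in WT, -1.90, -0.57 and -0.62 in F53S, and 1.20, 0.04 and -0.21 in K57N. The 3 K57N arrays were the highest, and replicate 1 changed place: it was the lowest array of WT and of F53S and the highest of K57N. On slide 1 K57N exceeded WT 6.49-fold, and on slide 2 by 1.40-fold for replicate 2 and 1.11-fold for replicate 3. The difference over all arrays was 1.11 ± 0.51 (SE, adjusted p = 0.415 by limma) and within slide 2 it was 0.32 (0.106). Without K57N replicate 1 it was 0.68, the smallest of the values with 1 array left out.

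SLC7A5 brings in leucine and other large neutral amino acids. It read 1.55, 2.20 and 2.03 in WT, 2.0, 2.06 and 2.23 in F53S, and 2.70, 2.26 and 2.36 in K57N. K57N stood above both other lines on every array, by 2.22-fold over WT on slide 1 and by 1.04-fold and 1.26-fold for the pairs of slide 2. The difference was 0.52 ± 0.21 (SE, adjusted p = 0.341 by limma), 0.0962 with slide as a term. SLC7A5P1, a pseudogene resembling SLC7A5, differed by -0.02. SLC7A6, a light chain for cationic and neutral amino acids, was not above background on replicate 1 of WT and of F53S, so the size of its difference over all arrays was not measured. On the 6 arrays of slide 2 it was above background, and K57N and WT differed by 0.69 (adjusted p = 0.0435 by limma).

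SLC7A8 encodes a light chain for small and large neutral amino acids. Its probe (chr14:23594654-23594713, minus strand, hg19) read -1.15, -1.58 and -1.45 in WT, -1.08, -1.32 and -1.35 in F53S, and -1.71, -1.96 and -1.76 in K57N. The K57N arrays were the 3 lowest, on both slides. The difference from WT was -0.41 ± 0.18 (SE, adjusted p = 0.362 by limma), and with slide as a term its adjusted p was 0.0251, with replicate number as a block 0.0414. Over 21 alternatives the difference ran from -0.51 to -0.29, with an adjusted p below 0.05 in 3 and between 0.0251 and 0.987.

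SLC7A1, which brings in arginine and lysine and works without a heavy chain, read 1.70, 1.65 and 1.82 in WT, 1.61, 1.49 and 1.79 in F53S, and 2.99, 1.92 and 1.88 in K57N. K57N replicate 1 stood more than 1 unit above every other array, and the other 2 K57N arrays were just above the range of WT. The fold of K57N over WT was 2.44 on slide 1 and 1.21 and 1.04 for the pairs of slide 2, and the difference over all arrays, 0.54 ± 0.29 (SE), did not pass (adjusted p = 0.529 by limma). SLC7A2 differed by -0.13.

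SLC43A1 and SLC43A2 facilitate the movement of large neutral amino acids without being driven by the sodium or proton gradient. SLC43A1 read -0.91, -1.35 and -1.41 in WT, -0.78, -1.23 and -1.16 in F53S, and -0.26, -0.87 and -1.0 in K57N. SLC43A2 read -0.30, -1.67 and -1.60 in WT, 0.30, -0.96 and -1.49 in F53S, and 0.19, -1.05 and -0.96 in K57N. Slide 1 was the higher slide for both genes, so the groups overlapped, yet within each slide every K57N array exceeded every WT array. The difference of SLC43A1 was 0.51 ± 0.09 (SE) with slide as a term, with an adjusted p of 0.00957 by limma and of 0.0229 with replicate number as a block. That of SLC43A2 was 0.58 ± 0.15, with 0.0312 and 0.0487. With 1 array left out and no slide term, the difference ran from 0.29 to 0.67 for SLC43A1 and from 0.18 to 1.02 for SLC43A2. With no slide term the adjusted p were 0.459 and 0.835, and the ranges over the alternatives reached from those with slide to 1.0.

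The SLC6 family carries glycine, taurine, creatine, proline and neurotransmitters with sodium and chloride. SLC6A9, the glycine carrier GlyT1, had the largest negative difference of K57N from WT among the 37 tested gene names. Its probe (chr1:44462162-44462221, minus strand, hg19) read 0.71, -0.29 and -0.26 in WT, 0.45, -0.68 and -0.59 in F53S, and 0.23, -1.53 and -1.54 in K57N. On each slide the order was WT, then F53S, then K57N, and slide 1 was the higher slide in every line. The difference was -1.0 ± 0.54 (SE, adjusted p = 0.529 by limma), and with slide as a term it was -1.0 ± 0.16 with an adjusted p of 0.00637, or 0.0147 with replicate number as a block. Within slide 2 it was -1.26 (0.00210) and between the 2 arrays of slide 1 -0.48. Over 21 alternatives it ran from -1.59 to -0.67, with an adjusted p below 0.05 in 4 and between 0.000348 and 1.0.

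SLC6A6 carries taurine, an osmolyte. It read -0.90, -0.43 and -0.36 in WT, -0.77, -0.12 and -0.33 in F53S, and -0.67, -0.08 and 0.06 in K57N. K57N was above WT within each slide by 0.23 on slide 1 and 0.38 on slide 2, with overlap between slides, and the adjusted p was 0.762 by limma with no slide term, 0.0493 with it and 0.0878 with replicate number as a block. The creatine carrier SLC6A8 read 3.06, 2.60 and 2.60 in WT, 3.30, 2.62 and 2.56 in F53S, and 3.56, 2.99 and 2.75 in K57N. The pseudogene SLC6A10P, whose sequence resembles SLC6A8, read 2.62, 1.74 and 2.12 in WT, 2.85, 2.07 and 2.19 in F53S, and 3.16, 2.51 and 2.53 in K57N. Both were higher in K57N within each slide. The difference of SLC6A10P was 0.58 ± 0.11 (SE) with slide as a term (adjusted p = 0.0127 by limma, 0.0167 with replicate number as a block, 0.529 with neither). A second SLC6A10P probe gave 0.077 (0.773 with slide as a term) and -0.093 within slide 2, and the mean of the probes 0.33, so the result with slide rests on 1 probe. The difference of SLC6A8 was 0.35 ± 0.10 (0.0549 with slide as a term).

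Among the other SLC6 genes, SLC6A15, a carrier of branched-chain amino acids and proline, read -3.03, -1.67 and -1.89 in WT, -2.77, -1.80 and -1.79 in F53S, and -1.98, -1.90 and -1.75 in K57N. WT and F53S were low on slide 1 only, and K57N was alike on both slides. SLC6A17, a vesicular carrier of neutral amino acids, read -2.27, -4.53 and -4.98 in WT, -2.0, -4.01 and -4.21 in F53S, and -2.77, -3.79 and -3.16 in K57N. WT replicate 3 was the array on which it was not above background, so the size of its difference was not measured on slide 2. Whether it passes there without that array was not tested. The K57N arrays of slide 2 also lay above WT replicate 2. On slide 1 K57N was lower than WT by 0.49. The dopamine carrier SLC6A3 differed by -0.31 between K57N and WT and the noradrenaline carrier SLC6A2 by -0.38. SLC6A13, SLC6A16 and SLC6A18 differed by between -0.03 and 0.04. SLC6A5 was above background on only 2 of the 3 WT arrays, so the size of its difference was not measured. The proton-coupled carrier SLC36A1 differed by -0.33 (adjusted p = 0.45), its 3 K57N arrays below WT, and SLC36A4 by 0.09.

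**Figure D2:**
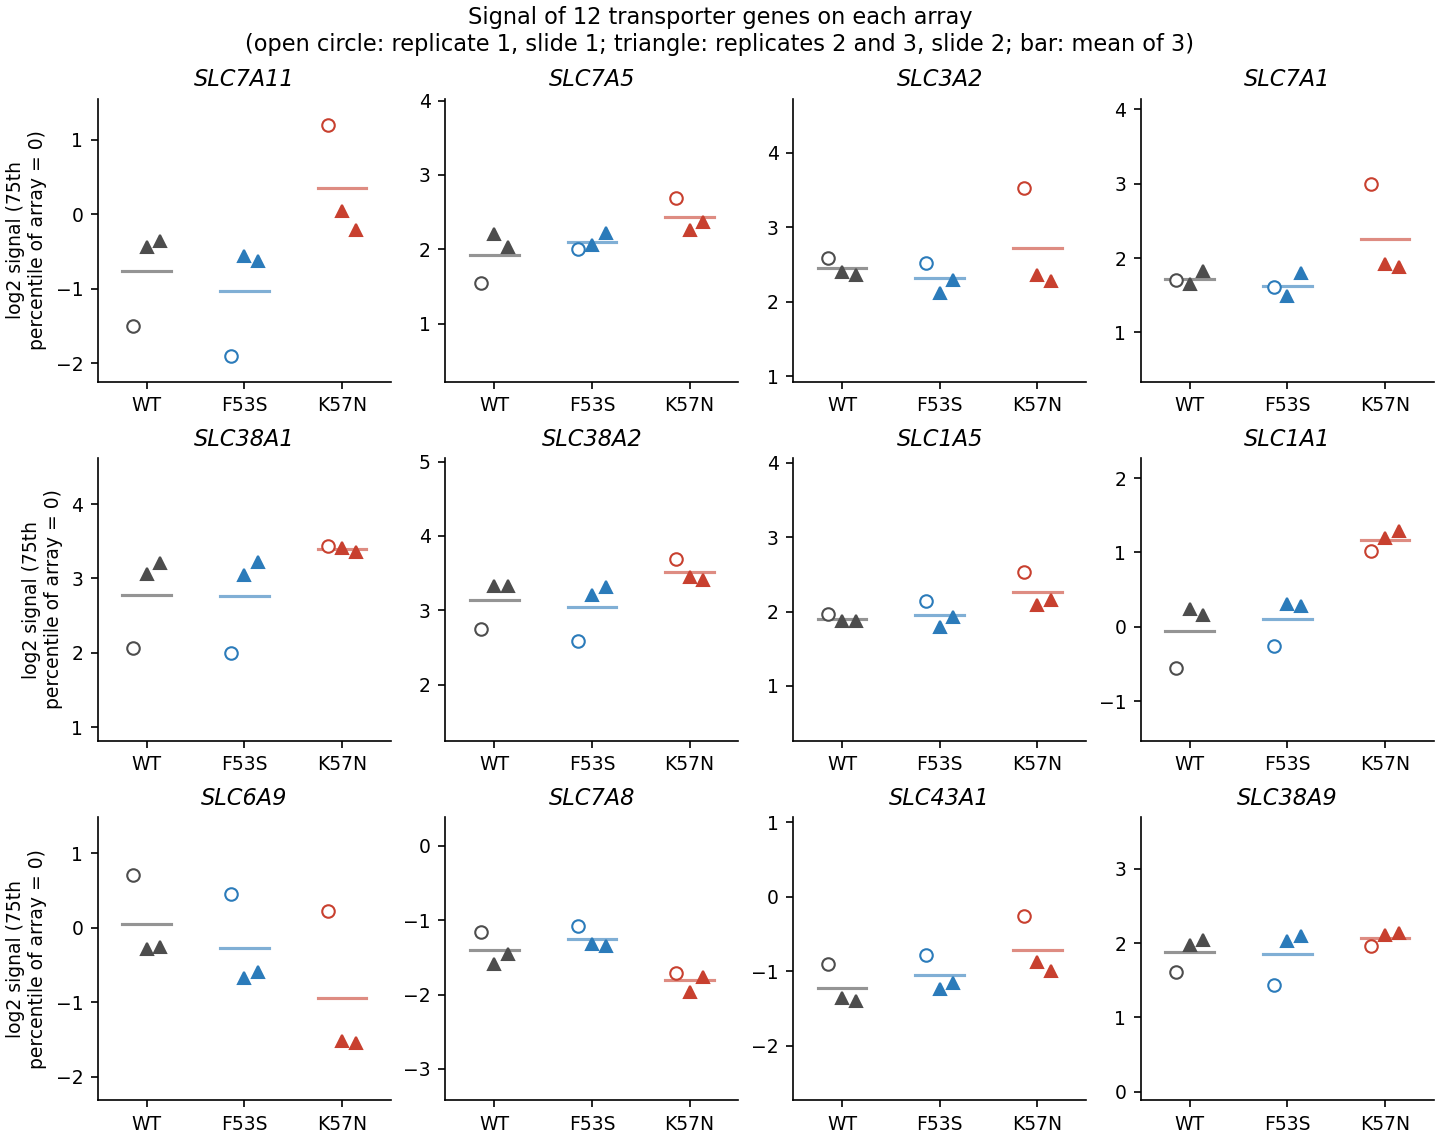
Log2 signal of 12 transporter genes on each array, by line, with the 75th percentile of each array at 0. Open circles are replicate 1 on slide 1, triangles replicates 2 and 3 on slide 2, and bars the mean of 3 arrays. SLC1A1 was high on all 3 K57N arrays, while SLC3A2 and SLC7A1 were high on K57N replicate 1 alone, at 3.53 and 2.99.

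K57N replicate 1 is given apart, as a description with no test, since slide 1 held 1 array per line. For some genes, such as SLC7A1, K57N replicate 1 was the array that stood apart, and for SLC6A15 and SLC38A1 the K57N arrays were alike and the WT and F53S arrays of slide 1 were low. Between the 2 arrays of slide 1, 6 gene names were over 2-fold higher in K57N than in WT, SLC1A1, SLC38A1, SLC6A15, SLC7A1, SLC7A11 and SLC7A5, beside 5.08% of all genes, and SLC38A10 was over 2-fold lower, beside 6.87%. Of F53S against WT on the same slide, 0 were over 2-fold higher (1.04% of all genes) and 0 lower (1.32%).

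Apart from SLC1A1, the gene names of this paragraph were picked by a limma comparison of the slides, with 1 array per line on slide 1. That comparison was chosen after the values were seen and also picked many genes outside these families, so the values are a description. The difference of K57N from WT on slide 1 less that on slide 2 was 2.38 for SLC7A11. It was 1.13 for SLC38A1, 1.12 for SLC7A1, 1.1 for SLC6A15, 1.0 for SLC3A2, 0.95 for SLC7A5 and 0.84 for SLC38A2. For SLC6A9 it was 0.78, because this gene was less low in K57N on slide 1, and for SLC38A10 it was -1.56. For SLC1A1, which was higher in K57N on both slides, it was 0.53. Some other probes of these genes gave values nearer 0, -0.46 for a second probe of SLC38A10, 0.67 for a second of SLC38A2 and -0.20 for another of SLC38A1. A further probe of SLC38A1 gave 1.13. The other tested probes of SLC6A15, which were not above background on every array, gave 1.38 and 0.88. The slide, the experiment and K57N replicate 1 cannot be told apart in these values.

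**Figure D3:**
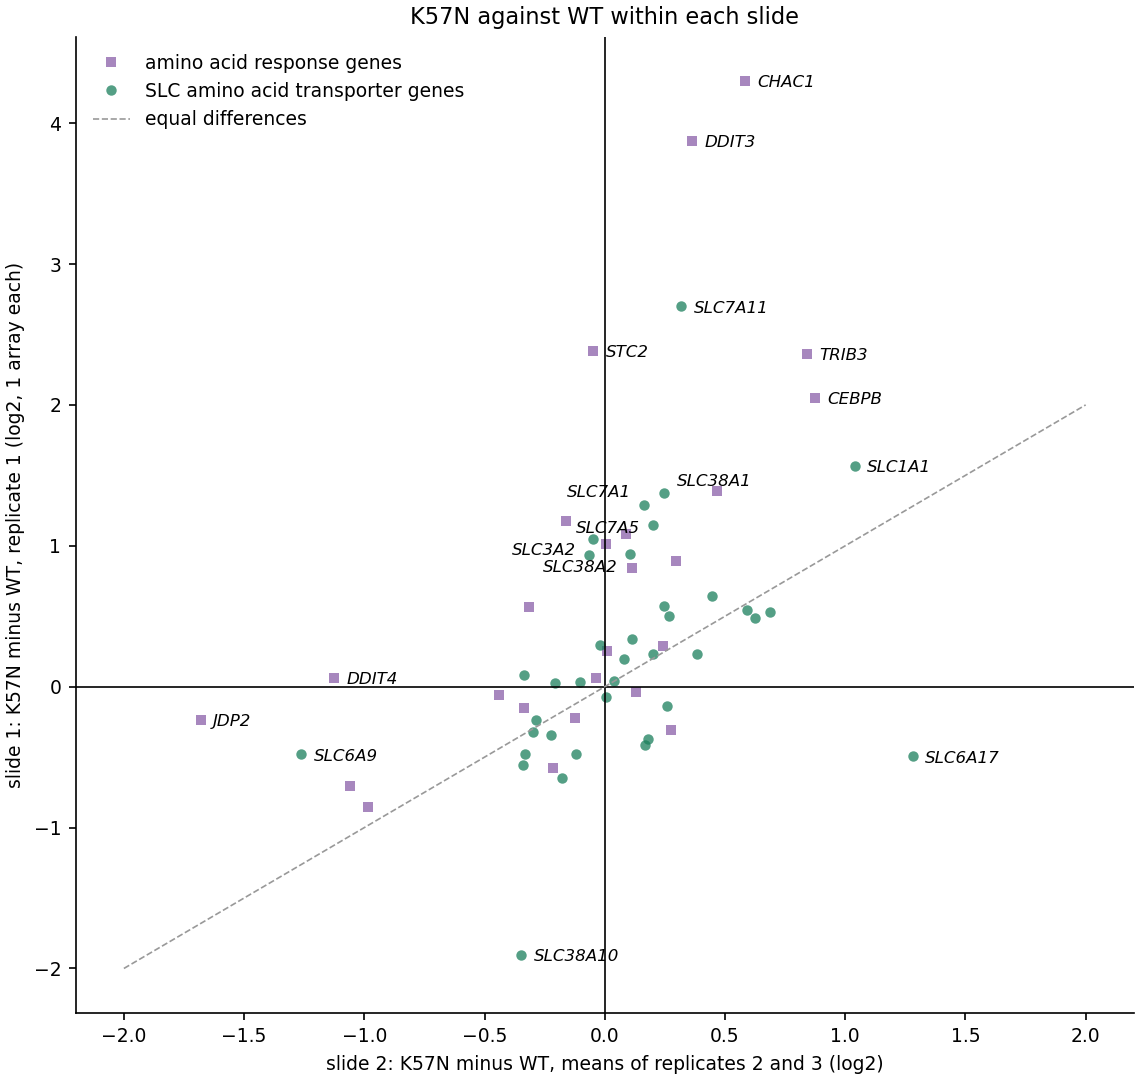
K57N minus WT on slide 1 (1 array of each line) against slide 2 (means of 2 arrays of each line), on the log2 scale, for the 37 tested gene names and the 25 amino acid response genes. SLC1A1 was high on both slides, at 1.57 and 1.04, and lay above the line of equal differences. SLC7A11, SLC7A1 and SLC3A2 lay further above that line, and SLC38A10 far below it.

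Promoters are shown for SLC7A1, SLC7A5, SLC3A2 and SLC38A1, picked by the comparison of the slides for a larger difference between K57N and WT on slide 1. Those of CHAC1 and ASNS, response genes described further on, are shown too. The sequences are from RefSeq (GRCh38.p14), 5' to 3' on the gene's strand, and SLC7A11 has no entry in that table. Of the 63 gene names 45 were matched by symbol, with 67 windows of 300 bases, 250 before and 50 after each annotated start. Capitals mark matches, on either strand, to TGATGNAA (the core of C/EBP-ATF composite sites), TGANTCA (AP-1), CACGTG (E-box) or TGACNNNGC (the core of antioxidant response elements). Only windows with a match are printed: the windows of SLC38A2, SLC6A9 and SLC38A10, whose values on the 2 slides are given above, held none of these letters, SLC6A15 has no entry, and the other starts listed for SLC3A2, SLC38A1 and ASNS held none. The AP-1 and antioxidant letters can overlap, as they do at SLC3A2. The windows are SLC7A1 at chr13:29595689-29595938 (minus strand), SLC7A5 at chr16:87869508-87869757 (minus), CHAC1 at chr15:40953221-40953470 (plus), ASNS at chr7:97872409-97872658 (minus), and stretches of 30 bases of SLC3A2 at chr11:62881650-62881679 (plus) and SLC38A1 at chr12:46266556-46266585 (minus).
SLC7A1: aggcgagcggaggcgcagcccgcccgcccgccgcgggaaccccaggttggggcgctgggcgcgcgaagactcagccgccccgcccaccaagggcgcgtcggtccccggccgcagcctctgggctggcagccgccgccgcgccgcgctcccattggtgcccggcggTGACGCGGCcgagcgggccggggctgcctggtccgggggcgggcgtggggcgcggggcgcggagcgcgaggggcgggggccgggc
SLC7A5: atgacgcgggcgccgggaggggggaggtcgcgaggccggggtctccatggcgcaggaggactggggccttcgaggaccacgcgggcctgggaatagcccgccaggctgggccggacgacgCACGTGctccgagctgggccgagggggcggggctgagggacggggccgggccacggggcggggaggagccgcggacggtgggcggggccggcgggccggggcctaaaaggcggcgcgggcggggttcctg
CHAC1: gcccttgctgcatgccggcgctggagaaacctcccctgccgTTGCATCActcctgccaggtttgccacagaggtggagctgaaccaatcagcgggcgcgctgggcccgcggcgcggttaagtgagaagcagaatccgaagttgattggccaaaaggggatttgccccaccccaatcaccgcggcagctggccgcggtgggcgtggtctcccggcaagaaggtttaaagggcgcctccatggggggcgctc
ASNS: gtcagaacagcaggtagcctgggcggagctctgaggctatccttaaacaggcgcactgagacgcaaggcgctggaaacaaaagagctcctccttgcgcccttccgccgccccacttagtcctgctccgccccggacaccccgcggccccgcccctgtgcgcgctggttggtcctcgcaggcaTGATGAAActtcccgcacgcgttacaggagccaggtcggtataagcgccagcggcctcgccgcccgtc
SLC3A2: cacgagggtgggTGACTCAGCgtcctcctt
SLC38A1: cttgaaatagagTGACTCAccgggaggggc

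Over all 35116 promoters of the table, 3.62% held TGATGNAA, 7.71% TGANTCA, 7.26% CACGTG and 13.3% TGACNNNGC. Of the 67 windows of the SLC genes, 8.96%, 16.4%, 14.9% and 10.4% held them, in the same order. Of 34 windows of the amino acid response genes, 14.7%, 8.82%, 8.82% and 23.5% did, so CHAC1 and ASNS do not stand for that list. TGATGNAA was also held by ATF3, CEBPG and JDP2, the last at -16 and lower in K57N than in WT. The windows of DDIT3, TRIB3 and CEBPB, which were higher in K57N, held no TGATGNAA. Counted in bases from the annotated start, the first marked base lay at -85 in SLC7A1, -130 in SLC7A5, -209 in CHAC1, -68 in ASNS, -37 in SLC3A2 and -57 in SLC38A1. Outside the printed or marked bases the same 300-base windows also held TGATGNAA at 7 in SLC7A1, at -4 in SLC38A1 and at 37 in SLC3A2, and TGACNNNGC at -2 in SLC7A5. These are matches of letters and do not show that a factor binds.

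The comparison of F53S with WT asks what a RASopathy-type MEK1 changes. Differences of the 37 gene names ran from -0.33 for SLC6A9 to 0.52 for SLC6A17, which was not above background on WT replicate 3, with a median of -0.0016 beside 0.01 over all genes. By limma 0 were called higher and 0 lower, where 0% of all genes were called in either direction. At an unadjusted p below 0.05 there were 0, where 121 of the 19267 genes were higher and 53 lower. The methods' t-test likewise gave 0 after adjustment and 0 before it, where 151 genes were higher and 131 lower before it. With slide as a term 0 were higher and 0 lower at an adjusted p below 0.05 (0% and 0% of all genes). SLC43A2 alone had an unadjusted p below 0.05 in that fit, where 452 genes were higher and 336 lower. All 3 F53S arrays lay above all WT arrays for 0 gene names, beside 1.54% of all genes, and below them for 0, beside 1.64%. The standard errors ran from 0.14 to 0.79 with a median of 0.31, or 0.13 with slide as a term, and differences larger than these also did not pass.

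Among the carriers described above for K57N, SLC1A1 differed by 0.16 ± 0.26 (SE), SLC7A11 by -0.26 ± 0.51 and SLC7A8 by 0.15 ± 0.18 between F53S and WT, with overlapping arrays. SLC6A9 was lower in F53S than in WT in each of the 3 pairs of the same number, by 0.26 on slide 1 and 0.36 on slide 2, and did not pass (adjusted p = 1.0 by limma with or without slide, 0.501 within slide 2). SLC43A2 was higher by 0.59 on slide 1 and 0.41 on slide 2, with an adjusted p of 1.0.

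The comparison of K57N with F53S asks how the 2 mutants differ, and it shares the K57N arrays with the comparison against WT. Differences ran from -0.81 for SLC38A10 to 1.38 for SLC7A11, with a median of 0.12 beside -0.07 over all genes. By limma 0 of 37 were called higher, beside 0.960% of all genes, and 0 lower, beside 0.249%. At an unadjusted p below 0.05 by limma there were SLC1A1 and SLC7A11 higher and SLC38A10 and SLC7A8 lower, where 940 of the 19267 genes were higher and 1054 lower. By the methods' t-test SLC1A1 was higher and SLC7A8 lower at that p, where 1032 and 996 genes were. After adjustment the t-test called 0 gene names. With slide as a term SLC1A1 was called higher at over 2-fold, beside 1.89% of all genes, and 0 members were called lower at that fold, beside 1.11%, with 10 members higher and 5 lower at an unadjusted p below 0.05, where 2468 and 3559 of the 19267 genes were. Without the 2-fold limit SLC1A1 alone was higher (5.83% of all genes) and SLC6A9 and SLC7A8 were lower (7.54%).

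SLC1A1 was 1.05 ± 0.26 (SE) higher in K57N than in F53S, 2.08-fold, with an adjusted p of 0.131 by limma, 0.00222 with slide as a term and 0.00698 with replicate number as a block. SLC7A8 was at -0.56 ± 0.18, with 0.265, 0.0117 and 0.0237, and SLC6A9 at -0.67 ± 0.54, with 0.866, 0.0373 and 0.0656. All K57N arrays lay above all F53S arrays for 6 gene names, beside 8.34% of all genes: SLC1A1, SLC38A1, SLC38A2, SLC7A1, SLC7A11 and SLC7A5. They lay below for SLC38A10, SLC38A7 and SLC7A8, beside 10.3%. SLC7A11 differed by 3.10 on slide 1 and by 0.51 on slide 2 (adjusted p = 0.0491 by limma).

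Where a gene had several probes, they were compared. Of 20 gene names with more than 1 probe, 8 had 2 or more tested ones. For K57N against WT the direction was the same for 7 of the 8, and SLC6A8 was the exception, with probes from -0.17 to 0.35. For F53S against WT it was the same for 5, with SLC38A1, SLC38A2 and SLC6A15 the exceptions, and for K57N against F53S also for 5, with SLC38A1, SLC6A10P and SLC6A8 the exceptions. The second probe of SLC38A10 gave -0.42 beside -0.87, and the second probe of SLC38A2 gave 0.48 beside 0.38. The 3 probes of SLC38A1 gave 0.04 to 0.62, and the lowest of them carries that name only in the annotation of the slide 1 files.

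Genes around amino acid supply were taken from 4 lists. Of 25 amino acid response genes, all tested, 0 were called in either direction by limma for K57N against WT, with 2 higher and 2 lower at an unadjusted p below 0.05, where 1185 and 1353 of all 19267 genes were, the counts against which those of the other lists are also to be read. With slide as a term CEBPB and TRIB3 were called higher, beside 2.56% of all genes, and JDP2 lower, beside 1.97%. Without the 2-fold limit 4 were higher, beside 8.55% of all genes, and 3 lower, beside 10.8%. CHAC1, which degrades glutathione, read -0.89, -1.48 and -1.53 in WT, -0.50, -1.54 and -1.68 in F53S, and 3.41, -0.91 and -0.95 in K57N. DDIT3, the transcription factor CHOP, read -0.26, -0.79 and -0.69 in WT, -0.48, -0.84 and -0.90 in F53S, and 3.61, -0.34 and -0.41 in K57N. For both, K57N replicate 1 stood far above every other array, 19.7-fold over the WT array of its slide for CHAC1 and 14.6-fold for DDIT3, while on slide 2 K57N exceeded WT by 1.49-fold and 1.5-fold for CHAC1 and 1.36-fold and 1.21-fold for DDIT3. TRIB3 was higher in K57N by 5.15-fold on slide 1 and by 1.65-fold and 1.94-fold on slide 2, with a difference of 1.35 ± 0.56 (SE, adjusted p = 0.345 by limma, 0.0172 with slide as a term). CEBPB differed by 1.26 ± 0.59 (0.430, 0.0100), JDP2 by -1.20 ± 0.33 (0.120, 0.0256), and VLDLR by -0.94 ± 0.17, with an adjusted p of 0.0241 below 2-fold. ASNS, the asparagine synthetase gene whose promoter is shown above, differed by 0.50 ± 0.26 (0.510, 0.0437).

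Of the 20 aminoacyl-tRNA synthetase genes, which load tRNAs, 0 were called by limma, with 0 at an unadjusted p below 0.05. With slide as a term TARS1 and WARS1 were higher at an adjusted p below 0.05 and under 2-fold, beside 8.55% of all genes. At that adjusted p 0 were lower, beside 10.8%. TARS1 differed by 0.68 ± 0.30 (SE, adjusted p = 0.399 by limma, 0.0383 with slide as a term), and the largest others were NARS1 and GARS1 at 0.42, WARS1 at 0.38, FARSB at 0.35 and RARS1 at 0.33. Of 30 nutrient sensing genes, SESN3, a sestrin that restrains mTORC1, was called lower, by -1.03 ± 0.16 (adjusted p = 0.0151 by limma), and 0 were called higher, with 0 higher and 4 lower at an unadjusted p below 0.05. That call of SESN3 was lost (0 called) with normexp, quantile normalization, no filter, 2 groups at a time, slide 2 alone, the deposited table, the methods' t-test, and without WT replicate 1 or 3 or any 1 of the K57N arrays. With slide as a term 2 of the 30 were higher and 5 lower at an adjusted p below 0.05, beside 8.55% and 10.8% of all genes. FNIP2 differed by -0.74, CASTOR1, a cytosolic arginine sensor, by -0.73, FLCN by 0.72, SESN1 by -0.66 and TSC2 by -0.48. Of 19 genes of other amino acid transport and glutamine metabolism, 18 were tested and 0 called, with 2 higher and 1 lower at an unadjusted p below 0.05. GLS2, a glutaminase, differed by -1.13 ± 0.25 (adjusted p = 0.0600, 0.000594 with slide as a term), and BCAT1 by 0.64, GLUD1 and SLC25A13 by 0.41 and BCAT2 by -0.35. By the methods' t-test with adjustment 0 genes of any of the 4 lists were called.

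**Figure D4:**
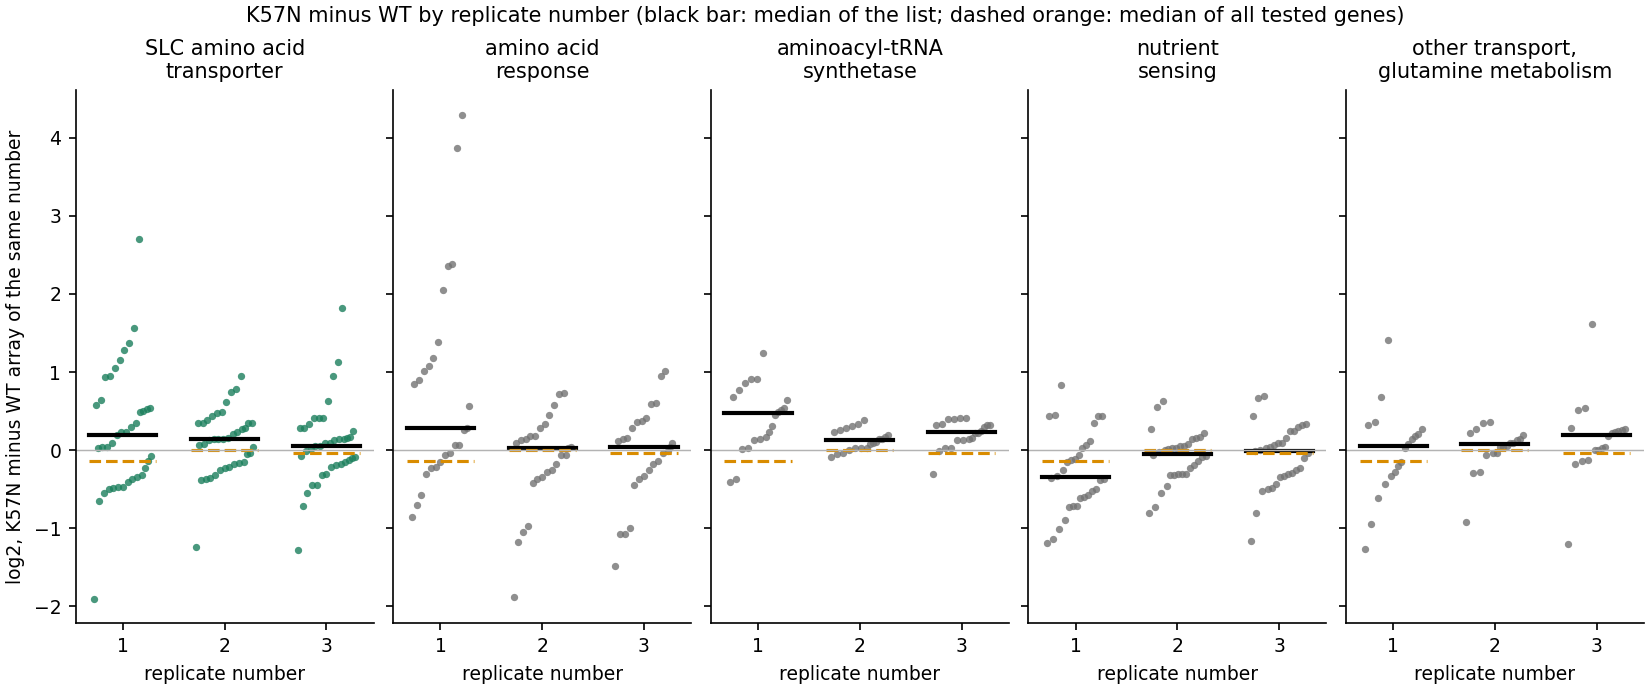
Difference of the K57N and WT arrays of the same replicate number, on the log2 scale, for every tested gene of 5 lists, with the median of the list as a black bar and the median of all tested genes as a dashed line. For the SLC amino acid transporter genes the medians were 0.20, 0.14 and 0.05 for replicates 1, 2 and 3, and the spread was widest for replicate 1.

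Taken list by list, replicate 1 had the widest spread. The standard deviation of K57N minus WT over the 37 SLC gene names was 0.81 for replicate 1, 0.40 for replicate 2 and 0.52 for replicate 3, beside 0.75, 0.57 and 0.59 over all tested genes. Over the amino acid response genes it was 1.34, 0.61 and 0.62. The median of the SLC genes was 0.20, 0.14 and 0.05 for replicates 1 to 3, beside -0.14, -0.0024 and -0.04 over all genes. Over the synthetases it was 0.47, 0.12 and 0.23, and over the nutrient sensing genes -0.34, -0.05 and -0.0067. In bulk RNA, fewer cells that express a gene and less RNA per cell cannot be told apart.

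Markers of other cell types were measured on the same arrays. Of 5 fibroblast markers, COL1A1 was above background on all 9 arrays and was the brightest, and COL1A2 and DCN were above it on none. Their summed signal, with the 75th percentile of an array as 1, was 1.39, 0.83 and 0.95 in WT, 1.12, 0.77 and 0.81 in F53S, and 0.50, 0.50 and 0.45 in K57N. The sum was thus lowest in K57N, which holds for COL1A1 and not for every marker of the list, and the part of this in the differences of the SLC genes was not tested. Of 4 endothelial markers 2 were above background on all arrays, VWF the brightest, with sums of 0.28 to 0.57 and CLDN5 on none.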

How the data were processed

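RNA of 9 HEK293 cultures was read on Agilent 1-colour arrays. The authors deposited, for each array, the intensity of Agilent Feature Extraction 10.10.1.1 after background subtraction and detrending, with its 0 or 1 marks, and a table of log2 values, which equal log2 of that intensity less a constant per array (within 0.02 for 100% of probes). The column medians of that deposited table ran from -3.85 to -3.41, and the step that set them is not stated. Each array was scaled to its 75th percentile over non-control spots. Outlier spots were left out, repeated spots averaged, and the probe with the highest mean signal stood for its gene. limma 3.58.1 (R 4.3.3) was fitted to all probes well above background on all 3 arrays of a line, with Benjamini-Hochberg adjustment over all of them, and calls required an adjusted p below 0.05 and over 2-fold. The fits were tested on simulated data, and the outcome is not reported here. The alternatives used quantile normalization, normexp (offset 50) in place of the scanner's background step, other filters on dim probes, slide or replicate number as a block, 2 groups at a time, slide 2 alone, the deposited table, the methods' t-test, the mean of a gene's probes, and each array left out in turn. A block by slide without K57N replicate 1 and the comparison of the slides were chosen after seeing the data.

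Pairing by replicate number, which the sample titles give, was checked by correlating the arrays' deviations from their line's mean: r was 0.341 to 0.871 for the same number and -0.800 to 0.651 for different numbers, in part because the number follows the slide. Named genes were those with an adjusted p below 0.05 in any comparison with or without slide, SLC3A2, SLC7A5, SLC7A11, SLC1A5, SLC38A2, SLC38A9 and SLC7A1 whatever their values, up to 6 genes of each other list with the largest difference of K57N from WT, and genes whose probes disagreed. Other members were named after their values were seen, and the results of a few genes are not reported here. The members and lists were chosen with earlier results of these data known. Python 3.11.15 made the tables.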

Additional observations from a re-analysis of the deposited data

Results flagged for a closer look

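The values of K57N less WT on slide 1 and on slide 2 were far apart for some gene names, as for many genes outside these families. The gene names given here were picked by a limma comparison with 1 array per line on slide 1, its spread taken from slide 2. That comparison was chosen after the values were seen, so it supports nothing and the values are a description. On slide 1 less slide 2 the difference was 2.38 for SLC7A11, 1.13 for SLC38A1, 1.12 for SLC7A1, 1.1 for SLC6A15, 1.0 for SLC3A2, 0.95 for SLC7A5, 0.84 for SLC38A2, 0.78 for SLC6A9 and -1.56 for SLC38A10, all log2. A second probe of SLC38A10 (-0.46), a second of SLC38A2 (0.67) and another of SLC38A1 (-0.20) were not among those picked. A further probe of SLC38A1 gave 1.13, near the value of the first. The other tested probes of SLC6A15, which were not above background on every array, gave 1.38 and 0.88. Slide 1 held replicate 1 of each line only, so the slide and K57N replicate 1 cannot be told apart, and the cause was not tested.

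Single arrays gave a signal well above background from 5 untested probes that were so on no WT array. The log2 value was -5.06 for a second probe of SLC6A3 and -5.41 for SLC7A3 on F53S replicate 2, -3.54 for SLC7A13 on F53S replicate 3, and -3.11 for SLC7A4 on F53S replicate 1. A second probe of SLC7A8 gave -1.16 on K57N replicate 1 and at most -5.86 on every other array.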

How the results depend on the processing

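Of 294 counts compared, 255 were the same and 39 moved, and of 882 single-gene differences 849 kept their direction and their side of the joint threshold (adjusted p below 0.05 and over 2-fold), 12 came to pass it and 21 turned direction. By adjusted p alone, 39 of the 882, of 9 genes, crossed 0.05. Of the 21, 14 were for F53S against WT, 3 for K57N against WT and 4 for K57N against F53S. The cause was not tested. Fewer probes passed the background test on slide 1 (23711 to 26110) than on slide 2 (27114 to 29319), which limits dim genes most.

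SLC members called higher in K57N than in WT, 0 as reported, were 1 with slide as a block, 1 with replicate number as a block, 1 with the mean of a gene's probes (SLC1A1 each time), 2 on slide 2 alone and 2 with slide as a block without K57N replicate 1 (SLC1A1 and SLC6A17), and 0 to 1 with 1 array left out. Members called lower, 0 as reported, were 1 with slide as a block, 1 with replicate number as a block, 1 on slide 2 alone and 1 with slide as a block without K57N replicate 1 (SLC6A9 each time), and 0 with any 1 array left out. Members called higher in K57N than in F53S, 0 as reported, were 1 with either block (SLC1A1).

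Amino acid response genes called higher, 0 as reported, were 2 with either block. Those called lower, 0 as reported, were 1 with either block, 3 on slide 2 alone, 3 with slide as a block without K57N replicate 1 (DDIT4, JDP2 and VLDLR), and 0 to 2 with 1 array left out. The nutrient sensing gene called lower, 1 as reported (SESN3), was 0 with normexp, with quantile normalization, with no filter, with 2 groups at a time, on slide 2 alone, with the deposited table, with the methods' t-test, with slide as a block without K57N replicate 1, and 0 to 1 with 1 array left out. Other amino acid transport and glutamine metabolism genes called lower, 0 as reported, were 1 with quantile normalization, either block, slide 2 alone, the deposited table and slide as a block without K57N replicate 1 (GLS2), and 0 to 1 with 1 array left out.

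Directions turned on slide 2 alone for SLC1A5 (-0.015) and SLC38A9 (0.052) in F53S against WT and for SLC3A2 in K57N against WT (-0.066), the last also with slide as a block without K57N replicate 1 (-0.049). With 1 array left out, SLC3A2 in K57N against WT ran from -0.14 to 0.49. With no turn of direction, that comparison ran from 0.21 to 0.44 for SLC1A5, 0.19 to 0.48 for SLC38A2 and 0.058 to 0.27 for SLC38A9. It ran from 0.36 to 0.81 for SLC6A10P, 0.16 to 0.55 for SLC6A6, 0.17 to 0.73 for SLC7A1 and 0.33 to 0.65 for SLC7A5. In F53S against WT the ranges were -0.090 to 0.34 for SLC1A1, -0.045 to 0.13 for SLC1A5, -0.29 to 0.13 for SLC38A2, -0.16 to 0.18 for SLC38A9, -0.039 to 0.91 for SLC43A2, -0.029 to 0.44 for SLC6A10P, -0.014 to 0.33 for SLC6A6, -0.63 to 0.17 for SLC7A11 and -0.018 to 0.31 for SLC7A5. In K57N against F53S they were -0.29 to 0.62 for SLC43A2 and -0.0017 to 0.40 for SLC6A6.

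Over all genes the share of K57N calls that were higher was 67.1% against WT, and 76.3%, 69.1% and 71.3% with normexp, quantile normalization and the deposited table. Against F53S it was 79.4%, and 94.8% with normexp.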
